A study of Mus musculus with 24 samples.

Results

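The 9 genes described here are the myogenic transcription factors and the fusion gene of skeletal muscle that were chosen by name: Myod1, Myf5, Myog and Myf6, which are the 4 myogenic regulatory factors, Mef2a, Mef2c and Mef2d of the MEF2 family, Pax7, and Mymk (older symbol Tmem8c). All 9 were found among the 55487 genes listed, and all 9 belonged to the 14541 tested, those with 10 or more normalized counts in 6 or more libraries out of 24. The RNA came from C2C12 cells, a mouse myoblast line labelled wild type, grown into myotubes under 5 % O2 and labelled day 5. Groups of 6 cultures were then held for 2 h under 5 % or 1 % O2 and were left without stimulation (5 % CTRL and 1 % CTRL) or were electrically stimulated in repeated bouts that imitate sprint interval exercise (5 % STIM and 1 % STIM). The layout asks what 1 % O2 did to each gene at rest, what it did after stimulation, what stimulation did under each O2 level, and whether the response to stimulation differed between the O2 levels. All cultures belong to a single immortal line that fuses in a dish without nerve or vessels, so the 6 cultures of a group are replicates of that line and not of animals. In bulk RNA, fewer cells of a type and less of a transcript per cell cannot be told apart.

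The myogenic regulatory factors are basic helix-loop-helix proteins that pair with E proteins and bind E-box sequences. Myf5 and MyoD commit cells to the muscle lineage, and myogenin and MRF4 act later, when myoblasts leave the cell cycle and become myotubes. MEF2 proteins bind the same muscle enhancers as partners of these factors, Pax7 marks satellite cells and undifferentiated myoblasts, and myomaker, the product of Mymk, is a membrane protein that myoblasts need in order to fuse.

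Libraries held 26541858 to 28173745 reads counted in genes. A normalized count is the read count divided by the size factor of its library, which lay between 0.955 and 1.05. Myotube markers were abundant, with summed normalized counts of 8 genes between 392087 and 489555, and Mymk is itself one of the 8. Of 10 markers of other cells, 7 were too low to be tested, among them Ptprc and Adgre1 of immune cells, Pecam1 and Cdh5 of endothelium and Adipoq of adipocytes. Dcn, Pdgfra and Pparg were measurable. Replicate 1 of 1 % CTRL stood apart from the other 5 libraries of its group. Its summed level of 7 markers of undifferentiated or cycling cells, which include Pax7 and Myf5, was 8031 against 5905 to 6889, and its summed level of myotube markers was 396455 against 409628 to 432154. Fold changes of Myod1 and Myog, the interactions of Myod1 and Mymk and some counts of called genes are also given without that library. Other values include it.

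Myod1, the gene of MyoD, was lower under 1 % O2 and lower after stimulation. Its normalized counts were 3084, 3656 and 3684 in 5 % CTRL (lowest, median and highest of 6 libraries), 1491, 2051 and 2226 in 1 % CTRL, 2506, 2658 and 3081 in 5 % STIM, and 1066, 1316 and 1531 in 1 % STIM. No library of a 1 % group reached the lowest library of the 5 % group it was compared with, and 1 % STIM held the lowest values. Between 1 % CTRL and 5 % CTRL Myod1 fell by 43.2 %, a log2 fold change of -0.83 ± 0.092 (SE, limma adjusted p = 7.83e-08), and without replicate 1 of 1 % CTRL the log2 fold change was -0.74. Between 1 % STIM and 5 % STIM it fell by 51.4 %, with a log2 fold change of -1.05 ± 0.092 (limma adjusted p = 2.12e-09). Stimulation lowered it by a log2 fold change of -0.37 under 5 % O2 (limma adjusted p = 0.00544) and of -0.59 under 1 % O2 (limma adjusted p = 4.38e-05). The stimulated and resting groups did not overlap under 5 % O2. Under 1 % O2 they overlapped only through replicate 1 of 1 % CTRL, whose 1491 lay under the highest 1 % STIM library, and without that library the log2 fold change was -0.67.

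Myog encodes myogenin, the factor of terminal differentiation. It was the most abundant of the 9 genes at rest under 5 % O2 and moved in the same directions as Myod1. Its normalized counts were 29456, 30738 and 31682 in 5 % CTRL, 17829, 19609 and 20251 in 1 % CTRL, 18549, 21448 and 23167 in 5 % STIM, and 11444, 12403 and 13362 in 1 % STIM. The libraries of the compared groups did not overlap in any of the 4 comparisons. At rest the step from 5 % to 1 % O2 gave a log2 fold change of -0.66 ± 0.043 (SE, limma adjusted p = 5.26e-14), and after stimulation it gave -0.76 ± 0.043 (limma adjusted p = 1.85e-15). Stimulation gave -0.53 under 5 % O2 (limma adjusted p = 7.19e-11) and -0.64 under 1 % O2 (limma adjusted p = 9.04e-13). Without replicate 1 of 1 % CTRL the values at rest and for stimulation under 1 % O2 were -0.63 and -0.66. The mean in 1 % STIM was 40.9 % of the 5 % CTRL mean for Myog and 37.6 % for Myod1.

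Myf5, which acts at the start of the myogenic program, went the other way. Its normalized counts were 123, 154 and 164.8 in 5 % CTRL, 221, 229 and 243 in 1 % CTRL, 165.45, 197 and 218 in 5 % STIM, and 289, 306 and 327 in 1 % STIM. Every group was separate from the groups it was compared with, by less than 1 count between 5 % CTRL and 5 % STIM, and 1 % STIM was highest, with a mean at 205 % of that of 5 % CTRL. Low O2 raised Myf5 by a log2 fold change of 0.63 ± 0.075 at rest (SE, limma adjusted p = 5.24e-09) and of 0.66 ± 0.075 after stimulation (limma adjusted p = 2.63e-09). Stimulation raised it by 0.38 under 5 % O2 (limma adjusted p = 0.000233) and by 0.41 under 1 % O2 (limma adjusted p = 7.92e-05). Counts of this size rest on 120 to 336 reads per library.

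Myf6, the gene of MRF4, is the neighbour of Myf5 on chromosome 10, with 6718 bases between the annotated genes, and it lay between 60.3 and 129 normalized counts over all 24 libraries. All 4 pairs of compared groups overlapped, and none of the 4 comparisons passed the test. After stimulation the log2 fold change of 1 % against 5 % O2 was 0.28, with a 95 % interval of -0.01 to 0.57 (limma adjusted p = 0.0950), so a rise of this size was not separable from the spread of 17.9 and 19.4 counts (SD) within the 2 groups. At rest the same difference was -0.004, with an interval of -0.30 to 0.29.

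**Figure D1:**
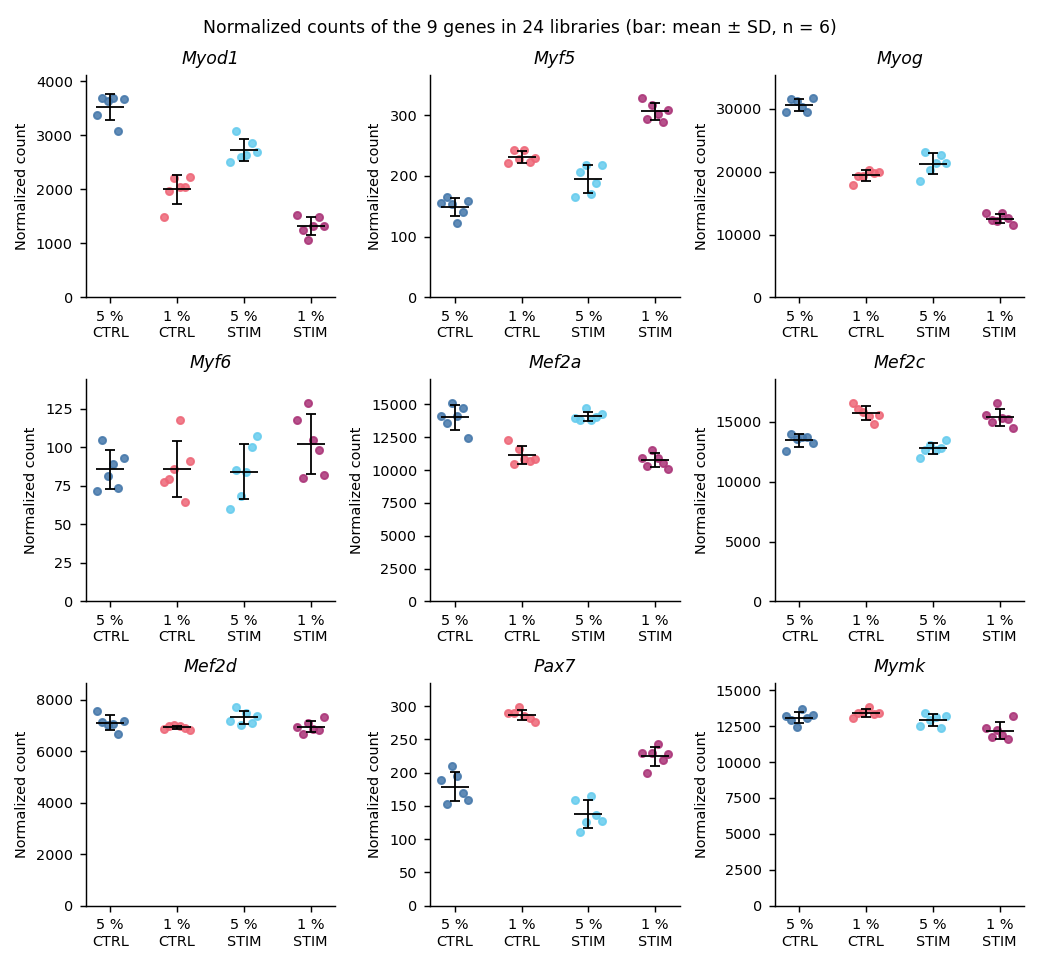
Normalized counts (vertical axes, from 0) of the 9 genes in the 4 groups; each point is a library and the bars are the mean ± SD of 6 libraries. Myod1 and Myog have their highest mean in 5 % CTRL and their lowest in 1 % STIM, and Myf5 the reverse. Pax7 is higher in both 1 % O2 groups and lower after stimulation, and the single low point of Myod1 in 1 % CTRL is replicate 1, at 1491.

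The bases before the transcription start of Myog and Myf5 are shown because these are regulatory factors that moved in opposite directions and have a window in the RefSeq table used, and those of Mef2a and Mef2c because they are the MEF2 genes that did. Each line holds the 250 bases upstream of a RefSeq start (GRCm38.p6), 5′ to 3′ on the strand of the gene, and capitals mark every E-box, CANNTG, which reads the same on both strands. The Myog window is chr1:134289754-134290003 on the plus strand, and its last 15 bases fall inside the first exon of the annotation. The Myf5 window is chr10:107486135-107486384 and the Mef2a window is chr7:67372859-67373108, both on the minus strand. The Mef2c window, before the first of its RefSeq starts, is chr13:83503784-83504033 on the plus strand.
Myog: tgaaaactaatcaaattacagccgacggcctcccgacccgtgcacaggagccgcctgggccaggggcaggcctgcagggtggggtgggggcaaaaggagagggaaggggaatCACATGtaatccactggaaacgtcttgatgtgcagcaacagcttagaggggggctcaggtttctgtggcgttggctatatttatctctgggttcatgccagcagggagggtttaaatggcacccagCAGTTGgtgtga
Myf5: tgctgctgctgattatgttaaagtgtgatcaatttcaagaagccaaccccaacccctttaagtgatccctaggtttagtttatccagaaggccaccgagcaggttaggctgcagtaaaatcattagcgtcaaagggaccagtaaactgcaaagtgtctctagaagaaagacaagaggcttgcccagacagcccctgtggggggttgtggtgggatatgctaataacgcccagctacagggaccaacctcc
Mef2a: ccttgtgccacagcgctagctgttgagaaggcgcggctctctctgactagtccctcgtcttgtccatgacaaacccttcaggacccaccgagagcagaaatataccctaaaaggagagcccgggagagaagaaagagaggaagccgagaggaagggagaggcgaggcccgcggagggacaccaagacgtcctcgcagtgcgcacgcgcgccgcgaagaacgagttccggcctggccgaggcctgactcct
Mef2c: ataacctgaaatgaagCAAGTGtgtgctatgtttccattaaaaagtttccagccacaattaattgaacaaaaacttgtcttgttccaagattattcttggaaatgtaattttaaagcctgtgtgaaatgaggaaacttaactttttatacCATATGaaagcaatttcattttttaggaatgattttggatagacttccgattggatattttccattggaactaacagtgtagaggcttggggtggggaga
The Myog window holds 2 E-boxes, CACATG from -138 to -133 and CAGTTG from -12 to -7 counted from the start site. The Mef2c window also holds 2, CAAGTG and CATATG, and the Myf5 and Mef2a windows hold none. Of 32851 windows of the same length over all genes, 66.2 % hold at least 1 CANNTG, so its presence does not set these genes apart. The core of the hypoxia response element, ACGTG or GCGTG on either strand, occurs once in the Mef2a window and in 38.6 % of all windows. A match describes letters only, and its absence says nothing about whether a factor binds. Windows for 6 of the 9 genes were matched by symbol.

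Of the MEF2 genes, Mef2a was lower under 1 % O2 and Mef2c was higher. Mef2a normalized counts were 12465, 14094 and 15138 in 5 % CTRL, 10488, 10846 and 12257 in 1 % CTRL, 13823, 13999 and 14714 in 5 % STIM, and 10075, 10754 and 11557 in 1 % STIM. The 1 % and 5 % groups did not overlap, while stimulated and resting groups did. The log2 fold change with 1 % O2 was -0.33 ± 0.040 at rest (SE, limma adjusted p = 1.08e-08) and -0.40 ± 0.040 after stimulation (limma adjusted p = 3.39e-10). For stimulation it was 0.01 with a 95 % interval of -0.07 to 0.09 under 5 % O2, and -0.05 with an interval of -0.13 to 0.03 under 1 % O2.

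Mef2c, the family member that muscle differentiation induces, had normalized counts of 12526, 13630 and 13992 in 5 % CTRL, 14860, 15682 and 16552 in 1 % CTRL, 12005, 12726 and 13482 in 5 % STIM, and 14455, 15291 and 16606 in 1 % STIM. Every 1 % library was above every 5 % library of the matching pair. With 1 % O2 it rose by a log2 fold change of 0.22 ± 0.033 at rest (SE, limma adjusted p = 3.75e-07) and of 0.27 ± 0.033 after stimulation (limma adjusted p = 1.67e-08). Stimulation gave -0.07 under 5 % O2 (limma adjusted p = 0.106) and -0.03 under 1 % O2 (limma adjusted p = 0.540), and the groups overlapped in both. The first of these 2 values passed the test when replicate 1 of 5 % CTRL was left out (limma adjusted p = 0.0378).

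Mef2d ranged from 6675 to 7726 normalized counts over the 24 libraries and overlapped between all compared groups. The 1 comparison that passed was 1 % STIM against 5 % STIM, with a log2 fold change of -0.07 ± 0.029 (SE, limma adjusted p = 0.0354). That call was lost when any of 7 libraries was left out (replicates 2, 4 and 6 of 5 % STIM and 1, 2, 4 and 5 of 1 % STIM), and with libraries rescaled to the same total the log2 fold change was -0.0008 (limma adjusted p = 0.983). In Mef2d, 8.87 % of the exon bases overlap an antisense gene, and 2.06 % do in Mef2a. Counting is not stated to use strand, so reads of such pairs cannot be told apart there.

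Pax7, the paired box factor of satellite cells, responded to O2 and to stimulation in opposite directions. Its normalized counts were 153, 179 and 210 in 5 % CTRL, 276, 287 and 299 in 1 % CTRL, 111, 132 and 165 in 5 % STIM, and 199.9, 229 and 243 in 1 % STIM. Each 1 % group lay wholly above its 5 % partner. After stimulation 5 % STIM overlapped with 5 % CTRL, while 1 % STIM lay wholly under 1 % CTRL. The rise with 1 % O2 was 0.69 ± 0.084 on the log2 scale at rest (SE, limma adjusted p = 1.17e-08) and 0.72 ± 0.084 after stimulation (limma adjusted p = 5.84e-09). Stimulation gave a log2 fold change of -0.38 under 5 % O2 (limma adjusted p = 0.000866) and of -0.35 under 1 % O2 (limma adjusted p = 0.00175).

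Myf5 and Pax7 both belong to the markers of undifferentiated cells used here, and the other 5 did not share a direction with 1 % O2 at rest. Between 5 % CTRL and 1 % CTRL, Top2a had means of 1264 and 2130 normalized counts and Cdk1 of 352 and 517, whereas Ccnb1 had 428 and 304, Cd34 2278 and 1838, and Mki67 1250 and 1239. These means include replicate 1 of 1 % CTRL. The SD in 1 % CTRL was 402 for Top2a and 324 for Mki67, beside 85.4 and 113 in 5 % CTRL. With stimulation under 5 % O2 the means of all 5 were higher, at 1441 for Top2a, 459 for Cdk1, 549.5 for Ccnb1, 2511 for Cd34 and 1358 for Mki67. Of the 7 markers 4 were called higher, Myf5 among them, and 1 lower, which was Pax7. Of all genes tested 9.44 % were called higher there and 12 % lower. The summed level of the 7 markers ran from 5691 to 6172 in 5 % CTRL, 5905 to 8031 in 1 % CTRL, 6278 to 7129 in 5 % STIM and 6236 to 7385 in 1 % STIM, so 5 % STIM lay wholly above 5 % CTRL while the other compared groups overlapped. The summed myotube markers were 445649 to 489555 in 5 % CTRL and 396455 to 432154 in 1 % CTRL, without overlap, and 407461 to 471348 in 5 % STIM and 392087 to 439673 in 1 % STIM, with overlap. Of those 8 markers 6 were called lower in 1 % CTRL than in 5 % CTRL and 5 in 1 % STIM than in 5 % STIM, and none was called higher in either. Of all genes tested 30.5 % and 28.4 % were called lower in these comparisons, and 29.4 % and 29 % higher. Of the 3 measurable markers of other cells 2 were called lower in 1 % CTRL than in 5 % CTRL, beside 30.5 % of all genes. The means in 5 % CTRL and 1 % CTRL were 1291 and 1066 for Dcn and 193 and 138 for Pdgfra, both markers of fibroblasts. The sum of the 10 markers of other cells was 1456 to 1706 in 5 % CTRL and 1278 to 1353 in 1 % CTRL, without overlap, and 1522 to 1711 in 5 % STIM and 1327 to 1537 in 1 % STIM, with overlap. The part of all these markers in the changes of the 9 genes was not tested.

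Mymk stayed within a narrow range. Its normalized counts were 12465, 13119 and 13675 in 5 % CTRL, 13061, 13412 and 13848 in 1 % CTRL, 12384, 13021 and 13421 in 5 % STIM, and 11590, 12078 and 13235 in 1 % STIM. All compared groups overlapped, in 1 % STIM against 1 % CTRL through the highest 1 % STIM library. Stimulation under 1 % O2 moved it down, and it fell by 9.24 %, a log2 fold change of -0.14 ± 0.030 (SE, limma adjusted p = 0.000462), and under 5 % O2 the value was -0.02 with a 95 % interval of -0.08 to 0.04. Mymk was also lower in 1 % STIM than in 5 % STIM, by a log2 fold change of -0.09 ± 0.030 (limma adjusted p = 0.0123), a call that was lost with libraries rescaled to the same total (-0.02, limma adjusted p = 0.647). At rest 1 % against 5 % O2 gave 0.04 with an interval of -0.02 to 0.10, and the same rescaling called it higher (0.12, limma adjusted p = 0.000917).

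**Figure D2:**
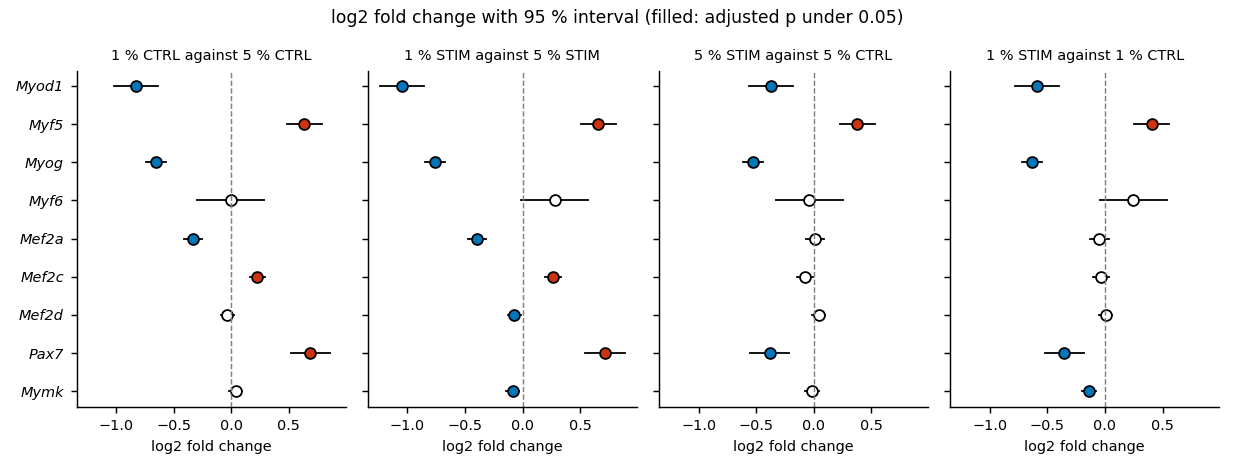
log2 fold change of normalized counts (horizontal axis) with its 95 % interval for the 9 genes in 4 comparisons; filled points passed the limma test at an adjusted p under 0.05, in red for higher and in blue for lower. Myod1, Myog and Mef2a lie left of 0 and Myf5, Mef2c and Pax7 right of it in both comparisons of 1 % with 5 % O2, while Pax7 lies left of 0 in both comparisons of stimulation.

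In 1 % CTRL against 5 % CTRL 6 of the 9 genes passed the test, 3 higher and 3 lower, where 59.9 % of all genes tested did, 29.4 % higher and 30.5 % lower. For 6 of the 9 genes, and for 38.2 % of all genes, no library of one group fell within the range of the other. In 1 % STIM against 5 % STIM 8 of the 9 passed, 3 higher and 5 lower, against 57.4 % of all genes, 29 % higher and 28.4 % lower, and 6 did not overlap against 37.3 %. At rest the count of 6 is near the share of all genes, and the 8 after stimulation include Mef2d and Mymk, whose calls were lost under rescaling. The median absolute log2 fold change of the 9 was 0.33 at rest and 0.40 after stimulation, beside 0.23 and 0.21 over all genes tested. For stimulation it was 0.07 under 5 % O2 and 0.25 under 1 % O2, beside 0.10 and 0.09 over all genes.

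In 5 % STIM against 5 % CTRL 4 of the 9 genes passed, 1 higher and 3 lower, where 21.4 % of all genes did, 9.44 % higher and 12 % lower, and 3 did not overlap against 11.1 %. In 1 % STIM against 1 % CTRL 5 passed, 1 higher and 4 lower, where 22.3 % of all genes did, 11.5 % higher and 10.8 % lower, and 3 did not overlap against 11.2 %. Without replicate 1 of 1 % CTRL the 4 counts were again 6, 8, 4 and 5. Each comparison of stimulation shares a group with each comparison of O2, and all 4 share the estimate of spread, so their values are not independent of each other. Relative to the size factors, rescaling all libraries to the same total shifts the median log2 fold change by 0.08 at rest and 0.07 after stimulation for 1 % against 5 % O2. That rescaling raises the share of higher genes among those called from 49.0 % to 62.7 % at rest, from 50.4 % to 63.2 % after stimulation, from 44.0 % to 62.1 % for stimulation under 5 % O2 and from 51.4 % to 62.4 % under 1 % O2. The directions of Myod1, Myog, Mef2a, Myf5, Mef2c and Pax7 in the O2 comparisons and of Myod1, Myog, Myf5 and Pax7 in the stimulation comparisons were kept under it.

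The response to stimulation under 1 % O2 minus that under 5 % O2, the interaction, was called by limma for 0 of the 9 genes, where 11.3 % of all genes tested were, 5.88 % higher and 5.43 % lower. At an unadjusted p under 0.05 the count was 1 of the 9, where 3590 of the 14541 genes tested passed. It was 1 with DESeq2, 1 with limma voom and 0 with edgeR. Over all genes these tools called 970, 848 and 861 higher and 850, 793 and 799 lower. Among the 9, the gene concerned was Mymk, with an interaction of -0.12 on the log2 scale and a 95 % interval of -0.21 to -0.04 (limma adjusted p = 0.0520). Without replicate 1 of 1 % CTRL its value was -0.13 (limma adjusted p = 0.0285), and it also passed without replicate 4 or 6 of 5 % CTRL, 1 or 5 of 5 % STIM, or 6 of 1 % STIM. For Myod1 the interaction was -0.22 with an interval of -0.49 to 0.05 (-0.30 without that replicate 1, limma adjusted p = 0.0563), and for Myog it was -0.11 with an interval of -0.23 to 0.02. For Myf5 and Pax7 it was 0.03 in both, with intervals of -0.19 to 0.24 and -0.21 to 0.27. These intervals do not show that the responses were alike.

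Levels of different genes were compared per exon length, as RPKM, the reads divided by exon length and by the reads of the library counted in genes. In 5 % CTRL the mean level was 728 for Myog, 308 for Mymk, 67.3 for Myod1, 42.2 for Mef2d, 33.9 for Mef2a, 30.4 for Mef2c, 2.54 for Myf5, 2.41 for Myf6 and 1.09 for Pax7. In this order Mef2a and Mef2c overlapped, as did Myf5 and Myf6, and all other neighbours were separate. In 1 % STIM, Myog at 320 RPKM overlapped with Mymk at 308, and Myod1 at 27.2 stood sixth, after Mef2d at 44.4, Mef2c at 37.3 and Mef2a at 27.9, overlapping with Mef2a. Myf5, at 5.61 RPKM, no longer overlapped with Myf6 at 3.08. The level of Myf5 stayed under those of Myod1 and Myog in every group.

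**Figure D3:**
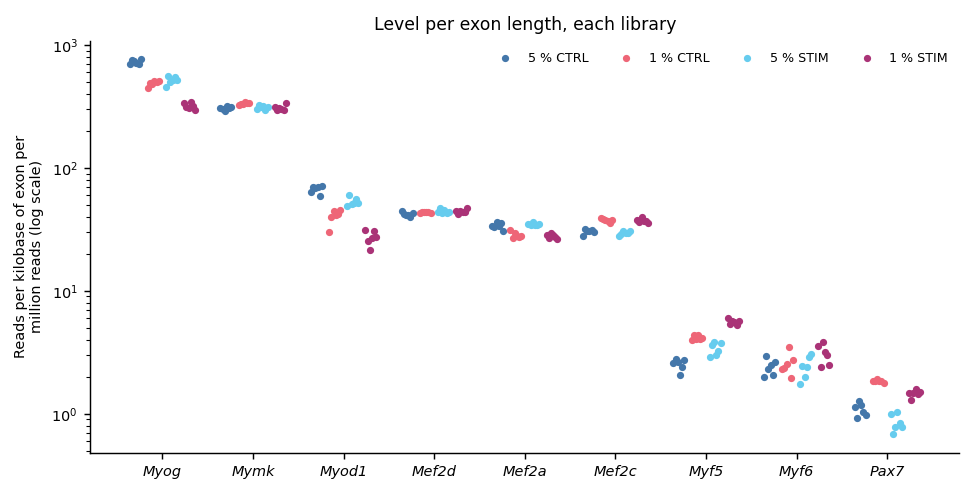
Level of each of the 9 genes in RPKM (reads per exon length and library size; vertical axis, log scale), with 1 point per library and the 4 groups by colour. Myog leads at 728 RPKM in 5 % CTRL and meets Mymk, near 308, in 1 % STIM, and Pax7 has the lowest mean in each group, down to 0.853 in 5 % STIM.

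Ratios between a pair of genes within the same library do not depend on how libraries are scaled. The ratio of Myod1 to Myf5 per exon length ran from 24.5 to 33.6 in 5 % CTRL, 7.54 to 10.9 in 1 % CTRL, 13.3 to 17.2 in 5 % STIM and 3.78 to 5.75 in 1 % STIM, and no range touched another. The ratio of Myog to Mymk ran from 2.24 to 2.53, 1.38 to 1.504, 1.497 to 1.85 and 0.874 to 1.13 in the same order. Compared groups did not overlap in it, and in 1 % STIM the level of Myog was close to that of Mymk. The ratio of Mef2c to Mef2a separated the O2 levels, with 0.830 to 0.992 and 0.802 to 0.881 in the 5 % groups and 1.26 to 1.43 and 1.31 to 1.36 in the 1 % groups. Pax7 against Myf5 separated the 1 % groups by stimulation, at 0.419 to 0.465 in 1 % CTRL and 0.242 to 0.286 in 1 % STIM, while 0.329 to 0.563 in 5 % CTRL overlapped with 0.190 to 0.343 in 5 % STIM. In 5 % CTRL and 1 % CTRL the ratio of Myog to Myod1 ran from 10.23 to 11.9 and 10.91 to 14.88, with overlap. In 5 % STIM and 1 % STIM it ran from 9.21 to 10.16 and 10.54 to 14.21. There 5 % STIM lay wholly under 5 % CTRL and 1 % STIM, and the 1 % groups overlapped. Pax7 against Myod1 was 0.0132 to 0.0183 and 0.0114 to 0.0202 in the 5 % groups, and 0.0394 to 0.0616 and 0.0470 to 0.0683 in the 1 % groups. All these ratios were chosen after the values of the genes were known and carry no test.

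**Figure D4:**
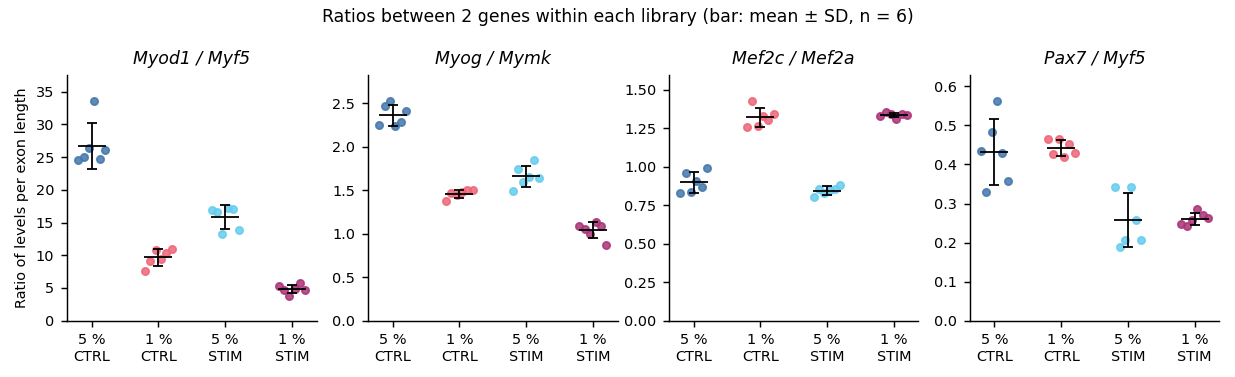
Ratio of the levels per exon length of 2 genes within each library (vertical axes, from 0), with 1 point per library and bars for the mean ± SD of 6. Myod1 over Myf5 falls from a mean of 26.7 in 5 % CTRL to 4.85 in 1 % STIM, and Mef2c over Mef2a is above 1 in every 1 % O2 library and under 1 in every 5 % O2 library.

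Summed per exon length, the 4 myogenic regulatory factors stood at 63.3 ± 3.15 % of the 5 % CTRL mean in 1 % CTRL, 70.4 ± 5.46 % in 5 % STIM and 41.4 ± 2.46 % in 1 % STIM (SD, n = 6). Myog supplied 89.2 % to 92.5 % of that sum in every library. Myod1 supplied 6.21 % to 9.70 %, and the share of Myf5 went from 0.318 % in 5 % CTRL to 1.58 % in 1 % STIM. The sum was thus almost wholly that of Myog.

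Genes known to act upstream of or beside these factors were read from lists of names. Of 23 upstream and satellite cell factors 17 could be tested, and in 1 % CTRL against 5 % CTRL 5 were higher and 6 lower, to be read beside the shares of all genes given above. The Notch receptor Notch1 fell from 2067 to 1307 normalized counts (log2 fold change -0.66, limma adjusted p = 2.23e-13) and Sox8, a transcription factor of satellite cells, fell from 419 to 245 (-0.78, 1.33e-10). Hey1, a target of Notch signalling, rose from 85.2 to 140.3, while the Notch target Heyl fell from 510 to 338 (-0.59, limma adjusted p = 6.01e-11). Six5 rose from 49.7 to 112 (1.15, limma adjusted p = 1.84e-08). Stimulation under 5 % O2 gave 4 higher and 6 lower: Spry1, an inhibitor of growth factor signalling that satellite cells use in quiescence, fell from 401 to 175 (-1.19, limma adjusted p = 6.04e-14), the Notch target Hes1 fell from 675 to 412, and Six4, a homeobox activator of myogenic genes, rose from 632 to 957. Under 1 % O2 stimulation gave 6 higher and 3 lower, with Six4 rising from 709 to 1162 and its cofactor Eya1 from 185 to 316. Hes1 and Spry1 fell there too, from 682 to 360 and from 315 to 167 (-0.92 and -0.90, limma adjusted p = 2.01e-13 and 4.74e-11). In 1 % STIM against 5 % STIM 7 were higher and 6 lower. The shares of the list called in these 4 comparisons were 64.7 %, 58.8 %, 52.9 % and 76.5 %. Over all genes they were 59.9 %, 21.4 %, 22.3 % and 57.4 %. Pax3, Eya2, Lbx1, Meox2, Barx2 and Msgn1 were too low to be tested.

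Of 20 E protein partners and inhibitors of the basic helix-loop-helix factors 18 could be tested. With 1 % O2 at rest 7 were higher and 5 lower, and after stimulation 6 were higher and 7 lower. In all 66.7 % and 72.2 % of the list were called, where 59.9 % and 57.4 % of all genes were. Bhlhe40 and Bhlhe41, repressors of the same protein family, had means of 7908 and 10845 and of 772 and 1370 normalized counts in 5 % CTRL and 1 % CTRL (log2 fold changes 0.46 and 0.83, limma adjusted p = 2.82e-14 and 8.16e-18). Ebf1 of this list went the other way, from 994 to 545 at rest (-0.87, limma adjusted p = 1.10e-18) and from 1149 to 687 after stimulation. Id2, which holds E proteins away from DNA, fell with stimulation from 662 to 363 under 5 % O2 and from 640.4 to 271 under 1 % O2 (-0.86 and -1.24, limma adjusted p = 1.67e-14 and 1.28e-18). Snai2, a repressor that competes for E-boxes, rose with stimulation from 352 to 649.8 and from 277 to 588. Stimulation called 5 higher and 1 lower under 5 % O2 and 4 in each direction under 1 % O2. These were 33.3 % and 44.4 % of the list, beside 21.4 % and 22.3 % of all genes.

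Of 27 MEF2 partners and class IIa histone deacetylases 25 could be tested, and 8 were higher and 12 lower with 1 % O2 at rest, 8 and 8 after stimulation. In all 80 % and 64 % of the list were called, where 59.9 % and 57.4 % of all genes were. Hdac5, a deacetylase that represses MEF2, rose at rest from 1048 to 1430 normalized counts (0.45, limma adjusted p = 5.81e-10). The means of the other class IIa deacetylases listed were lower with 1 % O2 at rest. They went from 755 to 632 for Hdac4, 1341 to 1139 for Hdac7 and 193 to 163 for Hdac9. Sik1, a kinase that phosphorylates class IIa deacetylases, rose from 2559 to 3880 (0.60, limma adjusted p = 6.49e-17). Ncoa2, a coactivator, rose from 807 to 1302, and the acetyltransferase Crebbp fell from 1742 to 1276. With stimulation 3 were higher and 7 lower under 5 % O2, where Srf, the serum response factor, fell from 2505 to 1923 and Ankrd1, a muscle ankyrin repeat gene, from 41372 to 32915. Under 1 % O2 6 were higher and 4 lower. Stimulation thus called 40 % of the list under either O2 level, beside 21.4 % and 22.3 % of all genes.

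Of 45 genes of myoblast fusion other than Mymk 38 could be tested. With 1 % O2 16 were higher and 13 lower at rest, and 11 were higher and 15 lower after stimulation. In all 76.3 % and 68.4 % of the list were called, where 59.9 % and 57.4 % of all genes were. Follistatin, Fst, a secreted antagonist of myostatin, fell from 5746 to 2594 normalized counts at rest (-1.14, limma adjusted p = 7.24e-17) and was 5533 and 2871 in 5 % STIM and 1 % STIM. The interleukin-4 receptor Il4ra fell from 2821 to 1745, and the integrin Itga3 rose from 922 to 1858. Mymx, which encodes the other muscle fusogen, myomixer, had means of 534, 557, 660 and 491 in 5 % CTRL, 1 % CTRL, 5 % STIM and 1 % STIM. Stimulation called 0 higher and 2 lower under 5 % O2, Il4ra and Itga3, and 2 higher and 8 lower under 1 % O2. These were 5.26 % and 26.3 % of the list, beside 21.4 % and 22.3 % of all genes. The count of 2 reached 6 without replicate 1 of 1 % CTRL and 7 with array weights. Over all genes 1372 higher and 1743 lower became 1556 and 1911 without that library and 1567 and 1986 with array weights.

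All 38 early differentiation genes known as targets of MyoD and myogenin could be tested, Mef2c among them. With 1 % O2 4 were higher and 13 lower at rest, and 3 were higher and 19 lower after stimulation. In all 44.7 % of the list was called at rest, where 59.9 % of all genes were, 30.5 % as lower, and 57.9 % after stimulation, where 57.4 % of all genes were, 28.4 % as lower. At a threshold of 0.01 the 17 called at rest became 11, and over all genes 4271 higher and 4437 lower became 3597 and 3787. The median log2 fold changes were -0.03 and -0.09, beside 0.00 over all genes in both. In the other lists, in the order given above, the medians were -0.01, -0.02, -0.04 and 0.02 at rest and 0.04, 0.00, -0.06 and -0.01 after stimulation. Mylk2, a kinase of the myosin light chain, fell at rest from 1271 to 765 normalized counts (-0.74, limma adjusted p = 1.13e-14), and Xirp1, which binds actin at myotube ends and adhesion sites, fell from 13074 to 8907. Rbm24, an RNA-binding splicing factor of muscle, rose from 2354 to 4221. Stimulation gave 3 higher and 4 lower under 5 % O2 and 4 higher and 9 lower under 1 % O2. These were 18.4 % and 34.2 % of the list, beside 21.4 % and 22.3 % of all genes. Dok7, an adaptor of the neuromuscular junction, fell with stimulation from 1383 to 889.6 and from 1186 to 588, and Trim63, a ubiquitin ligase of muscle atrophy, rose from 1174 to 2051 and from 1197 to 2161. The lists of names were chosen with earlier results of these libraries known, so their counts are given as a description.

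**Figure D5:**
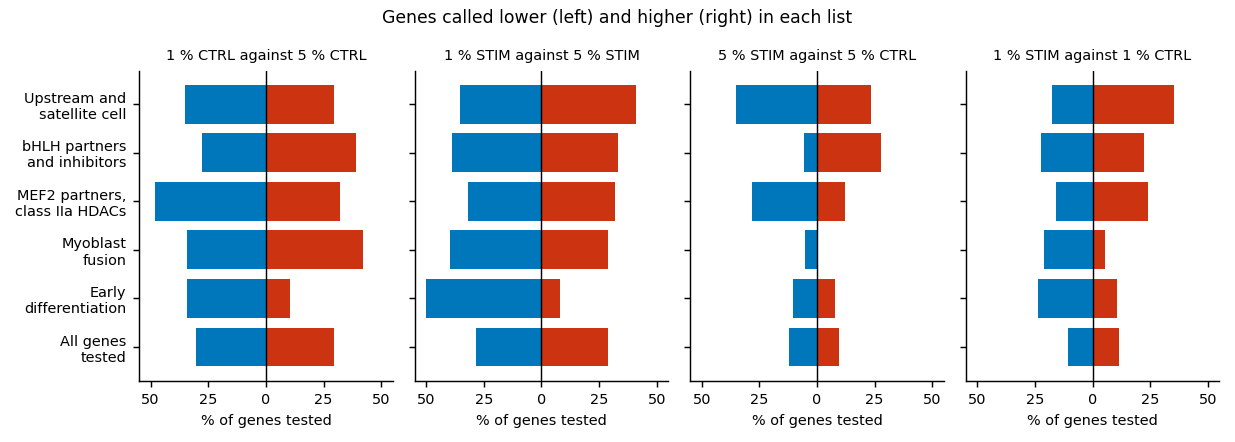
Share of the tested genes of each list called lower (blue, to the left) and higher (red, to the right) in 4 comparisons, in % of genes tested, with all 14541 genes tested in the bottom row. Of the 38 early differentiation genes 13 were lower and 4 higher with 1 % O2 at rest, where 30.5 % and 29.4 % of all genes were. After stimulation 19 were lower and 3 higher, where 28.4 % and 29 % were. With stimulation under 5 % O2, 2 fusion genes were called, 5.26 % of that list, where 21.4 % of all genes were.

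The genes whose log2 normalized counts ran most like those of each factor over the 24 libraries were sought in the 10795 tested genes whose mean reached 100 counts. For Myog they were Rin1 (Pearson r = 0.990), Tubb4b (0.984) and B4galt5 (0.978). For Myod1 they were Trim8 (0.979) and Traf4 (0.978), and for Myf5 Ip6k1 (0.955), Zrsr1 (0.951) and Ppp1r15a (0.937). Ivns1abp led for Mef2a (0.980), Nexn for Mef2c (0.949), Naa10 for Pax7 (0.957), Krt19 for Mymk (0.885) and Gm38317 for Mef2d (0.863). The 24 points fall into 4 groups and share libraries, so the values describe likeness of pattern and carry no test.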

How the data were processed

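The 24 libraries are 6 cultures in each of 4 groups, taken from the sample labels. Per the labels and methods, stranded mRNA libraries were read from one end. The authors aligned the reads to GRCm38 with STAR 2.5.4b, estimated gene expression with RSEM 1.3.0 at default parameters, which are not stated to use strand, and checked reads with FastQC 0.11.7. The deposited signal is the count per gene divided by the DESeq2 size factor of the library, with no filter. A second table of the authors holds log2 fold changes, p-values, adjusted p-values and calls of their own comparisons and was not used. The whole reads were recovered by taking the smallest positive value of each library as a single read: 100 % of values lay within 0.01 reads of a whole number.

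The test covered the 14541 genes that reached 10 normalized counts in 6 or more libraries. All 4 groups were fitted together on log2(normalized count + 1) with limma 3.58.1 in R 4.3.3 (eBayes with trend and robust), which understates changes of low genes, and a Benjamini-Hochberg adjusted p under 0.05 over all genes tested was called. The p-values measure the spread between cultures of 1 line. The interaction is the response to stimulation under 1 % O2 minus that under 5 % O2. edgeR 4.0.16 and DESeq2 1.42.0 on whole reads, limma voom, array weights, a pseudocount of 10, no filter, a stricter threshold, a replicate block, rescaled totals, the compared groups alone and leaving out each library were alternatives. The procedure was tested on simulated data.

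The 9 genes and the 5 lists were chosen with earlier results of these data known. Named genes of a list are up to 4 called genes per comparison with the largest change, where the mean of the higher group reached 100. Mymx, Hdac7 and the genes at or near 0 were named outside that rule. Some genes that it names in a comparison are also given for others, as Hdac4, Hdac9 and Heyl are at rest. For likeness, the 3 genes with the highest r were taken for each of the 9 called somewhere. Of the genes these rules name, 2 are not reported here and stay in all tests and counts. Coordinates and exon lengths come from the GRCm38 annotation and upstream sequences from RefSeq (GRCm38.p6).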

Additional observations from a re-analysis of the deposited data

Results flagged for a closer look

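Replicate 1 of 1 % CTRL lay apart from the other 5 libraries of its group for 2 of the 9 genes, by Dixon's criterion at the 95 % level. Myod1 was 1491 there against 1973 to 2226 normalized counts in the others, and Myog was 17829 against 19378 to 20251. These were 2 of 36 sets of 6 libraries examined, and chance marks about 1 in 20. The same library had 8031 summed counts of undifferentiated or cycling markers, against 5905 to 6889 in the others. The part of that difference in the low Myod1 and Myog was not tested.

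The limma interaction passed at an adjusted p under 0.05 for 4 of 17 upstream factors and 5 of 18 basic helix-loop-helix partners tested. It also passed for 9 of 25 MEF2 partners, 5 of 38 fusion genes and 6 of 38 early differentiation genes. These are 23.5 %, 27.8 %, 36 %, 13.2 % and 15.8 % of the lists, beside 11.3 % of all genes tested. The 19 genes below were named because they passed, so their number is no result in itself. Values are log2 responses under 1 % O2 minus those under 5 % O2. Among upstream factors the interaction was 0.63 for Heyl, a Notch target whose log2 fold change with stimulation was -0.36 under 5 % O2 and 0.27 under 1 % O2. It was 0.44 for Eya1 and -0.17 for Notch3. Among basic helix-loop-helix partners it was -0.64 for Bhlhe41, -0.40 for Bhlhe40, 0.40 for Ebf3 and -0.38 for Snai1. Bhlhe41 rose with stimulation by 0.64 under 5 % O2 and had a value of -0.01 under 1 % O2. Among MEF2 partners it was 0.58 for Hdac9, -0.35 for Hdac5, -0.32 for Sik1 and 0.29 for Ankrd1. Hdac5 and Hdac9, both class IIa deacetylases, thus had interactions of opposite sign. Among fusion genes it was -0.35 for Cav3, -0.20 for Myo10, 0.16 for Il4ra and -0.14 for Bin1. Among early differentiation genes it was -0.38 for Dok7, 0.27 for Klhl41, -0.26 for Chrng and -0.19 for Chrnd. Chrng and Chrnd encode the gamma and delta subunits of the acetylcholine receptor, and stimulation gave 0.06 and 0.01 under 5 % O2 and -0.20 and -0.18 under 1 % O2.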

How the results depend on the processing

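Under the 11 alternatives that change a setting or leave out replicate 1 of 1 % CTRL, and the leaving out of each library in turn, no fold change of the 9 genes that passed the test changed its direction. Of 486 values of single genes under the 11 alternatives, other left-out libraries not counted, 473 stayed on their side of the threshold, 8 moved past it and 5 no longer passed. Those 5 were Mef2d in 1 % STIM against 5 % STIM without the filter (adjusted p = 0.0522), at a threshold of 0.01 and with rescaled totals, and Mymk in the same comparison at 0.01 and with rescaled totals. Myf6 passed there with rescaled totals (log2 fold change 0.35, adjusted p = 0.0335). The interaction count, 0 in the fit reported, was 1 with the replicate block, with rescaled totals, with DESeq2, with limma voom and with array weights, and 0 to 1 when a library was left out, in each case through Mymk; the cause was not tested. The replicate block changed no other call of the 9 genes. Same-numbered libraries deviated together by correlations of -0.15 to 0.15, with 2 of 36 pairs over 0.1. These values show no pairing by number, but taken over all genes tested they could miss a pairing seen in part of them. Leaving out each library in turn also changed calls: Mef2d in 1 % STIM against 5 % STIM was lost in 7 cases, Mymk passed in the interaction in 6, Myf6 passed in 1 % STIM against 5 % STIM in 2 (without 5 % STIM replicate 6 or 1 % STIM replicate 2), and Mef2c passed in 5 % STIM against 5 % CTRL in 1. Of the list counts 252 stayed within 1.5 times the value given and 18 did not. The fusion count of 2 under 5 % STIM became 6 with the block or rescaled totals and 4 with DESeq2. Over all genes 1372 higher and 1743 lower became 1424 and 1766, 1860 and 1133, and 1399 and 1743 under these 3 settings. The early differentiation count of 17 became 11 at a threshold of 0.01, where 4271 higher and 4437 lower over all genes became 3597 and 3787. For the interaction, the fusion count of 5 became 1 at 0.01 and 8 with DESeq2. The early differentiation count of 6 became 3 at 0.01 and 13 with array weights. The basic helix-loop-helix count of 5 became 3 at 0.01. Over all genes tested the interaction called 855 higher and 790 lower in the fit reported. These became 369 and 461 at 0.01, 970 and 850 with DESeq2 and 1339 and 1071 with array weights. They were 899 and 811 with the block, 778 and 860 with rescaled totals and 848 and 793 with limma voom. List counts under alternatives were added after seeing the data. Of the 9 genes Myf6 had the fewest reads, 59 to 134 per library, and how much of its spread is counting error was not tested.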
